A study of Mus musculus with 8 samples.

Results

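The genes described here are the matrix metalloproteinases (Mmp), the Adamts proteases with their Adamts-like relatives, and the tissue inhibitors of metalloproteinases (Timp) of the mouse trachea at E13.5, the stage at which its cartilage and muscle take shape. They were chosen by symbol alone, as every Mmp, Adamts, Adamtsl and Timp gene in both deposited count tables, which gave 51 of 23478 genes: 23 Mmp, 19 Adamts, 5 Adamts-like and 4 Timp genes. RNA sequencing was done on 8 libraries. In the sorted-cell experiment all libraries carried Bmp4flox/flox and the γSMAeGFP reporter of smooth muscle: 2 mutant libraries also carried Foxg1Cre and 3 control libraries carried no Cre. Epithelial cells were removed by an Epcam antibody and muscle cells by GFP, and the labels call the remaining cells chondroblasts. In the whole-trachea experiment all libraries carried Wls flox/flox: 1 mutant library also carried ShhCre and 2 controls carried no Cre. Controls without Cre do not separate the effect of a deletion from that of its Cre allele. Nothing in the labels states that replicate libraries are from different embryos, so each p-value below reflects the spread among the libraries only, and that spread may be technical.

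Matrix metalloproteinases are zinc enzymes that cut collagens, proteoglycans and other proteins outside the cell. They are made as inactive precursors, and some are activated by other proteases, such as furin or a membrane-bound Mmp. Adamts enzymes share the metalloproteinase core and carry thrombospondin-type repeats. Some cut aggrecan and versican, the large proteoglycans of cartilage and embryonic mesenchyme, and others trim procollagens or bind fibrillin microfibrils. Adamts-like proteins have the repeats without the catalytic domain. Timps bind and block the active sites of these enzymes. In developing cartilage this set of genes removes the provisional, versican-rich matrix and remodels the collagen laid down later.

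The Bmp4 mutant libraries held 12964287 and 15462780 counts and their controls 48876948 to 55492747, while the tracheas held 24596836 to 31399982. Bmp4 was at 24.1 and 32.2 CPM (counts scaled to a common library size) in the mutants against 99.2 to 124 CPM in their controls, and Wls was at 65.8 CPM in the Wls mutant against 153 and 146 CPM. All CPM values carry TMM scaling factors, which align libraries on the bulk of their genes. Both Bmp4 mutants also held counts in 1433 olfactory and vomeronasal receptor genes, which belong to sensory neurons of the nose: 13.6 and 14.5 counts per kilobase of exon, against 0.200 to 0.292 in the controls and 0.720 to 1.08 in the tracheas. The 99th percentile over these receptor genes was 83.1 and 90.8 counts per kilobase in the mutants. A gene below that level in a mutant cannot be told apart from the receptor genes there. Over the 7 chondrocyte markers measured (of 8 listed), summed levels were 395 and 1018 CPM in the Bmp4 mutants against 1972 to 4178 CPM in their controls, and 484 CPM in the Wls mutant against 1268 and 1064 CPM. Matn1, a marker of mature cartilage, had 0 counts in 2 of the 3 sorted controls, while Sox9 stood at 733 to 1946 CPM and Col2a1 at 838 to 1526 CPM there. The 6 smooth muscle markers summed to 1246 and 193 CPM in the Bmp4 mutants against 105 to 127 CPM, and hemoglobin genes took 12.3% of the counts of Bmp4 mutant 1 and 0.111% of those of mutant 2. Other marker lists also summed above every sorted control in both Bmp4 mutants: fibroblast and perichondrium (4366 and 4970 CPM against 2205 to 3680), airway epithelium (68.9 and 48.4 CPM against 23.7 to 38.3), endothelium (169 and 139.5 CPM against 23.1 to 84.1), macrophage (171 and 184 CPM against 110.0 to 123), osteoclast (60.6 and 46.7 CPM against 17.2 to 25.9) and neuron and crest (408 and 471 CPM against 243 to 376). Single markers did not all follow these sums. Of the chondrocyte markers, Sox9, Col2a1 and Col9a1 were below every sorted control in both mutants. Matn1 was above every control (4.16 and 2.83 CPM against 0 to 0.166). Acan (9.86 and 19.4 CPM against 1.52 to 22.9), Hapln1 (9.20 and 16.4 CPM against 7.11 to 10.1) and Col11a1 overlapped the controls. Sox10, a crest marker, was below every sorted control in both mutants (18.4 and 32.2 CPM against 38.9 to 53.5). In mutant 1, Twist2 (16.9 CPM against 36.7 to 84.0), Pdgfra (179 CPM against 322 to 431) and Nkx2-1 (0.146 CPM against 2.27 to 10.5) were below every control. In mutant 2, Acp5 (5.15 CPM against 8.07 to 14.5) and Des (30.1 CPM against 30.4 to 44.2) were below every control. The marker sums were not set against the receptor range. Some markers in them were low in the mutants, such as Epcam (5.41 and 6.8 CPM) and Calcr (8.25 and 8.04 CPM). In the Wls mutant, smooth muscle markers (2447 CPM against 1765 and 1465) and airway epithelium markers (712 CPM against 539 and 450.3) were above both controls and endothelium markers below both (222 CPM against 278 and 330.2). Their part in the results below was not tested. In these bulk libraries, fewer cells of a type and less RNA per cell cannot be told apart.

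Mmp2, which encodes gelatinase A, an enzyme for denatured and basement membrane collagen, had the highest level of the family per kilobase of exon in both experiments. In the controls its level was 409 ± 115 CPM per kilobase (SD, n = 3) in sorted cells and a mean of 140 CPM per kilobase in the 2 tracheas. It made up 28.3% to 35.0% of the summed CPM of all 51 genes in the sorted controls and 15.9% to 17.9% in the trachea controls. The next levels in the sorted controls were Adamts1 (135 ± 36.5 CPM per kilobase), Mmp14 (127 ± 64.5), Mmp11 (97.3 ± 9.39), Adamts15 (60.9 ± 17.8), Timp3 (52.6 ± 5.61), Adamts10 (47.3 ± 7.17), Timp2 (27.2 ± 2.75), Adamts7 (26.7 ± 8.26) and Timp1 (22.2 ± 2.88). In that order the libraries separated Mmp2 from Adamts1, Mmp11 from Adamts15 and Adamts10 from Timp2, and all other neighbours overlapped.

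In the trachea controls the order was Mmp2, Mmp14 (122 CPM per kilobase), Timp2 (77.3), Mmp11 (54.0), Adamts1 (38.1), Adamts15 (35.7), Timp3 (34.8), Adamts10 (31.3), Adamts7 (17.8) and Mmp15. Each of the first 4 was separated from the next by the 2 libraries. Among Adamts1, Adamts15, Timp3 and Adamts10, neighbours overlapped, and Adamts7 was separate from its neighbours on both sides. Of these 10 genes 9 were also among the 10 highest in the sorted controls. The tables were made with different kits and normalized separately, so the orders are set side by side and the levels were not compared between them. At a mean of at least 10 CPM, 24 of the 51 genes were present in the sorted controls and 23 in the trachea controls, 22 of them in both. At the other end, 11 genes were under 1 CPM in both control groups. Of the 51 genes, 6 had no count in any sorted control and 6 had none in any trachea.

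**Figure D1:**
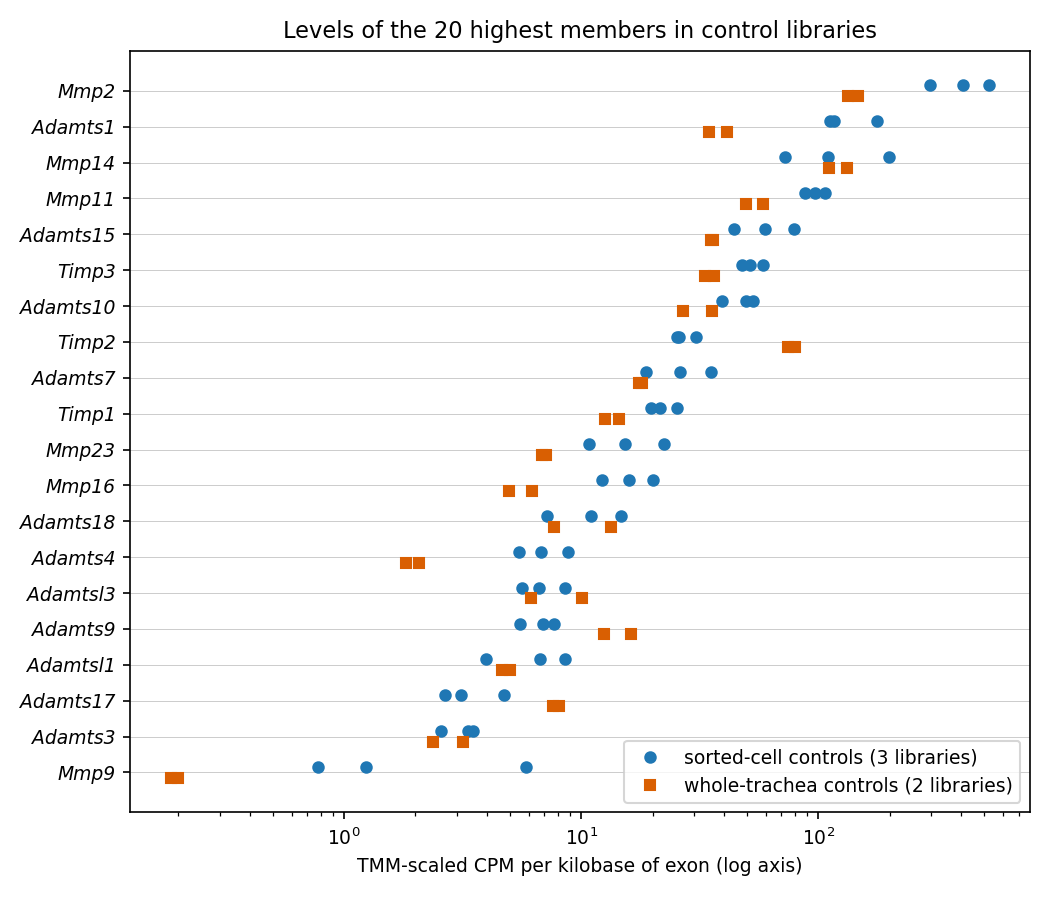
TMM-scaled CPM per kilobase of exon, on a log axis, for the 20 Mmp, Adamts, Adamts-like and Timp genes with the highest mean in the sorted controls. Circles are the 3 sorted-cell controls and squares the 2 whole-trachea controls; Mmp2 is highest in both, at a mean of 409 and 140 CPM per kilobase.

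With the counts as deposited, 25 of the 51 genes were called higher in the Bmp4 mutants and 1 lower (edgeR quasi-likelihood test, adjusted p under 0.05). Over all 21665 genes tested, 54.9% were called, 39.3% higher and 15.6% lower. The median log2 fold change was 1.21 for the 51 genes and 0.53 for all genes tested. It was also 1.21 with the 6 genes that had no control count set to their lower bound (a control level of 3 counts per library). Of the 25 genes called higher, 21 stayed within the 99th percentile of the receptor genes in both mutants, 3 exceeded it in 1 mutant (Adamts2, Adamts3 and Adamts16), and Adamts17 exceeded it in both. Control means were under 1 CPM for 13 of the 25. With scaling factors from the genes above the receptor background, the all-gene median moved to 0.95, the split of all genes from 8507 higher and 3381 lower to 10062 and 646, and that of the 51 genes to 31 higher and 0 lower. Under that scaling 0 of the 51 were lower at an unadjusted p under 0.05 either (edgeR).

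A limit of 6.14 CPM per kilobase, the mean of the mutants' receptor 99th percentiles on that scale, left 17 of the 51 genes with a mean over the 5 sorted libraries above it. Their log2 fold changes ran from -0.95 to 0.37 with a median of -0.24, and 13 were negative. None was called higher and 1, Adamts7, was called lower. Over all 8114 genes above that limit the median was -0.43, with 2.95% called higher and 37.8% lower. All 25 genes called higher were among the other 34. Over all genes tested, 239 of the 8507 called higher lay above the limit. The limit is set on a mean made mostly of control libraries. A gene high in the mutants alone can therefore fall below it, and nothing about the family is read from this split. In a second test, the receptor rate per kilobase was first taken from every gene's count in proportion to its exon length. Then 12 of 46 genes tested were called higher and 0 lower, against 22.3% and 8.98% of all 18280 genes tested. At an unadjusted p under 0.05 edgeR had 1 of the 46 lower, and DESeq2 on the same subtracted counts called 1 lower (17 higher). Of the 12, 9 lay within the receptor 99th percentile in both mutants and 6 had a control mean under 1 CPM. With the higher rate of genes silent in the controls, 9 of the 51 were called higher: Adamts12 (adjusted p = 0.11) and Mmp12 (0.059) lost the call, and Adamts13 was no longer tested. Without mutant 1, 0 of them were called (14 higher at an unadjusted p under 0.05). For the 17 genes above the limit, subtracted log2 fold changes ran from -0.81 to 0.46, with a median of -0.02 and adjusted p between 0.060 and 0.98. Testing only the 8114 genes above the limit, an alternative chosen after the data were seen, called 0 of the 17 (3 higher and 0 lower at an unadjusted p under 0.05, edgeR), against 0.678% of those genes higher and 0.259% lower.

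**Figure D2:**
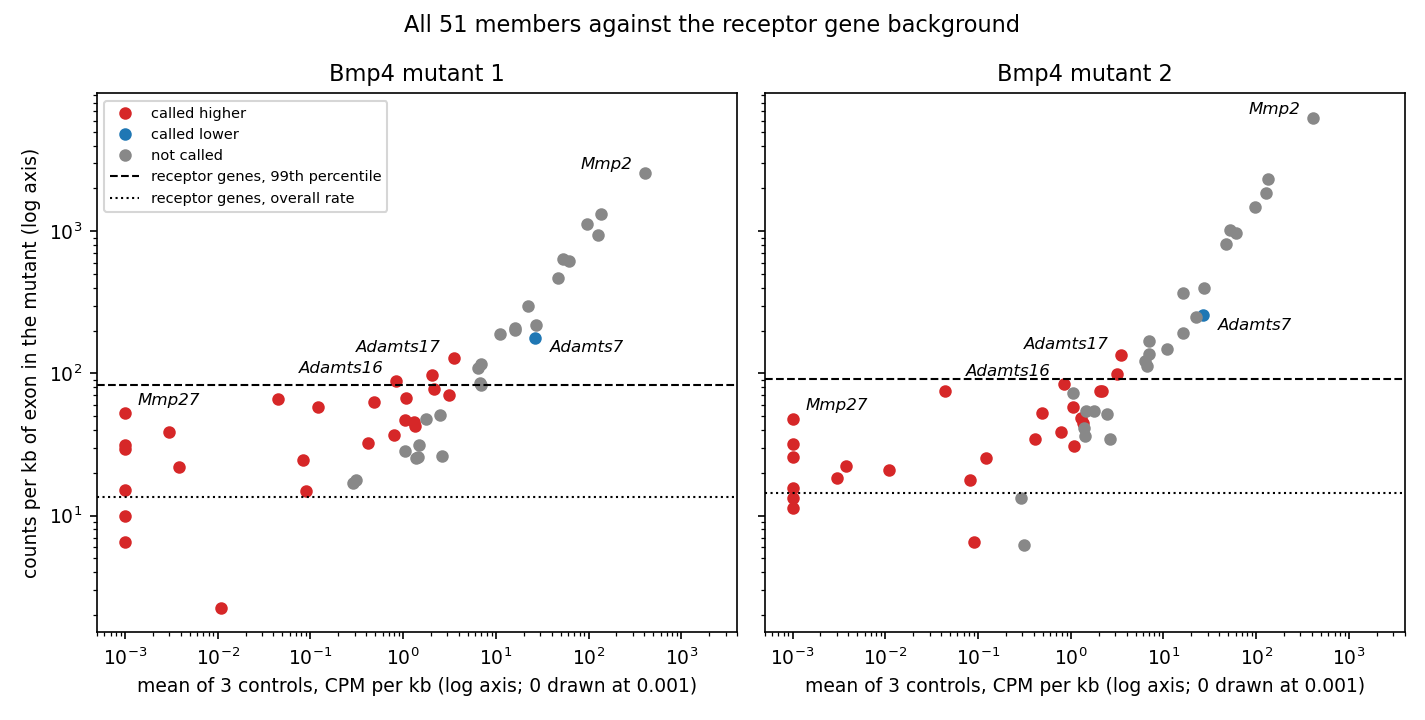
Counts per kilobase of exon in each Bmp4 mutant (y, log axis) against the mean of the 3 sorted controls in CPM per kilobase (x, log axis) for all 51 genes. The dashed line is the 99th percentile of receptor genes (83.1 in mutant 1 and 90.8 in mutant 2) and the dotted line their overall rate (13.6 and 14.5); of the genes called higher, only Adamts17 lies above the dashed line in both panels.

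The collagenases, stromelysins, matrilysin and macrophage elastase of mouse chromosome 9 lie in 1 cluster of 10 genes between positions 7272514 and 7699585 (mm10, 427 kilobases): Mmp13, Mmp12, Mmp1b, Mmp3, Mmp1a, Mmp10, Mmp8, Mmp27, Mmp20 and Mmp7. They are shown because 9 of the 10 were called higher in the Bmp4 mutants with deposited counts, against 39.3% of all genes tested. After background subtraction 4 of the 10 were called, against 22.3%. Those 9 genes had few or no counts elsewhere and passed the expression filter through the mutants alone. A high count in the mutants was thus a condition of testing them, so no conclusion is drawn from these shares. Some of their promoters are printed beside those of Adamts1, Mmp14 and Adamts17, which had counts in every control. The motif counts that follow compare the cluster with all other family members that have a listed promoter, at any level of expression. The sequences are the 150 bases before the gene start, 5′ to 3′ on the strand of the gene, from RefSeq (GRCm38.p6), with TATAAA and TGANTCA in capitals. TATAAA is the core of the TATA box. TGANTCA is a loose form of the AP-1 motif that allows any middle base, where the AP-1 consensus has C or G. The Mmp20 match is TGAATCA, outside that consensus, and the other matches printed here are TGAGTCA or TGACTCA. Both strands were searched.
Mmp3, chr9:7445672-7445821, plus strand: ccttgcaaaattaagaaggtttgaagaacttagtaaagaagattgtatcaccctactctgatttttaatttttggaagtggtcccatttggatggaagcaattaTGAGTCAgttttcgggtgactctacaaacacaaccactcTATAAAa
Mmp10, chr9:7502192-7502341, plus strand: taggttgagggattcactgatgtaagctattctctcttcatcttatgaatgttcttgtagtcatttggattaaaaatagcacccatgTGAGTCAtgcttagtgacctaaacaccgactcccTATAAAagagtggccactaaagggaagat
Mmp13, chr9:7272364-7272513, plus strand: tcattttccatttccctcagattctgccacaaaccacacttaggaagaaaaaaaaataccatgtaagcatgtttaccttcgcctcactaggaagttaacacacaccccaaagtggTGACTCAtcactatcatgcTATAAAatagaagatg
Mmp1a, chr9:7463991-7464140, plus strand: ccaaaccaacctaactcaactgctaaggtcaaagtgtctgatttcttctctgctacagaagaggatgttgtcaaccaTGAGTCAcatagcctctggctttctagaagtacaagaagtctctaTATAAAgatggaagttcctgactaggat
Mmp20, chr9:7628081-7628230, plus strand: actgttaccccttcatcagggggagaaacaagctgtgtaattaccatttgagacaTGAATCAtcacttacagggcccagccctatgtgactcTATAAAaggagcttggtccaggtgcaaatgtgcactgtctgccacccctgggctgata
Adamts1, chr16:85803114-85803263, minus strand: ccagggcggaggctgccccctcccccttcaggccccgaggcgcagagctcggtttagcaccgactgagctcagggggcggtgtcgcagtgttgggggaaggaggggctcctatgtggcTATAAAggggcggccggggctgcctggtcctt
Mmp14, chr14:54431448-54431597, plus strand: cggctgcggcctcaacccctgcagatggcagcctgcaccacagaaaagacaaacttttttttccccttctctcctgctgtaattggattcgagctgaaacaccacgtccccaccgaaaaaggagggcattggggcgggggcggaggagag
Adamts17, chr7:66839585-66839734, plus strand: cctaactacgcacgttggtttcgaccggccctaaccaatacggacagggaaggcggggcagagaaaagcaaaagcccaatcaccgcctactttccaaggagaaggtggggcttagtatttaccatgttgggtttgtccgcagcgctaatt

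Of the 10 cluster genes, 7 had TATAAA in at least 1 listed promoter, 8 had TGANTCA and 7 had both. All cluster promoters printed above belong to the 7 with both. Mmp12 had TGANTCA without TATAAA, and Mmp8 and Mmp27 had neither. Among the 26 other members with a promoter in the table, 3 had TATAAA (Adamts1, Adamtsl2 and Mmp21) and none had TGANTCA. Over all 32851 promoters in the table, 7.57% held TATAAA, 4.24% TGANTCA and 0.511% both in the same length. CG pairs numbered 0 to 6 in the listed promoters of the cluster and 0 to 30 in those of the other members. Their median was 12 in the other members and 4 in all promoters. These matches describe letters in this window and say nothing of binding in these cells.

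Without Mmp8, the 9 cluster genes had at most 8 counts in any sorted control and at most 3 in any trachea, against 6 to 136 counts in the Bmp4 mutants. Mmp3, stromelysin 1, had 119 and 136 counts in the mutants (8.69 and 7.70 CPM) and 0.156, 0.0221 and 0.0623 CPM in the controls. Mmp12, macrophage elastase, was at 5.84 and 4.64 CPM in the mutants, with 2 counts in control 3 and none in the other controls. Mmp20, the enamel protease of teeth, had 96 and 85 counts in the mutants, or 7.01 and 4.81 CPM, and none in any control or trachea. Mmp27 had 87 and 80 counts in the mutants, or 6.36 and 4.53 CPM, and likewise none elsewhere. A count of 0 allows up to 0.0586 to 0.0662 CPM in a sorted control (3 counts per library) and up to 0.0933 to 0.123 CPM in a trachea, counting error only. The 6 genes with no control count (Mmp1a, Mmp1b, Mmp7, Mmp10, Mmp20 and Mmp27) entered the test through the mutants alone, so no fold is given for them. With at most 8 counts in any control, Mmp3, Mmp12 and Mmp13 also entered it through the mutants alone. All 10 cluster genes stayed between 2.25 and 75.5 counts per kilobase in the mutants, within the receptor 99th percentile. The receptor rate times exon length came to 208% and 129% of the mutant counts of Mmp7, 138% and 109% of those of Mmp1a, 607% and 69.3% of those of Mmp13, and 43.5% and 92.6% of those of Mmp10. For Mmp3 it was 20.6% and 19.2%, for Mmp27 26.0% and 30.2%, for Mmp20 46.7% and 56.2% and for Mmp12 62.1% and 64.6%. After subtraction these 4, which again passed the filter through the mutants alone, were still called higher. Mmp1a, Mmp1b, Mmp7, Mmp10 and Mmp13 had too few counts left to be tested. Mmp8, the neutrophil collagenase, was the exception in the controls, with at least 73 counts in each. The neutrophil markers, 7 of 7 measured, summed to 1056, 242 and 1268 CPM in those controls and to 140 and 342 CPM in the mutants, while Mmp8 was at 1.43, 1.61 and 4.57 CPM in the controls and at 5.04 and 10.02 CPM in the mutants. Both mutants were thus above every control for Mmp8 (log2 fold change 1.57 ± 0.67, edgeR adjusted p = 0.082), with 28.5 and 73.0 counts per kilobase, within the receptor range. Mmp9, gelatinase B, another protease of leukocytes and osteoclasts, was at 18.6, 2.47 and 3.93 CPM there and at 6.06 and 6.23 CPM in the mutants, also within the receptor range at 26.1 and 34.7 counts per kilobase. Neither was called, and the part of neutrophils in these levels was not tested.

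Among the abundant Mmp genes no difference passed the test in the Bmp4 mutants. Mmp2 (chromosome 8, 92827291 to 92853420) was at 573 and 1090 CPM in the mutants and at 1615, 1251 and 909 CPM in the controls. Mutant 1 was below every control and mutant 2 lay among them (log2 fold change -0.60 ± 0.35 (SE), edgeR adjusted p = 0.18). Mmp14, the membrane-bound protease that activates pro-Mmp2 together with Timp2, was at 178 and 271 CPM against 514, 286 and 188 CPM. The controls spread more widely than the groups differed (-0.55 ± 0.41, edgeR adjusted p = 0.28). Mmp11, stromelysin 3, which furin activates inside the cell, was at 187 and 192 CPM against 221, 245 and 202 CPM. Its groups did not overlap, by a small margin (-0.23 ± 0.15, edgeR adjusted p = 0.24). Over all genes tested, 25.6% had both mutants below every control and 48.2% above, and among the 51 genes 3 lay below and 30 above.

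The other membrane-linked proteases were lower in level. Mmp16, like Mmp14 a membrane-type enzyme, was at 81.7 and 112 CPM in the Bmp4 mutants and at 85.2, 107 and 65.3 CPM in the controls. Mmp15, of the same type, was at 19.3 and 15.2 CPM against 13.1, 12.1 and 13.0 CPM. Only the Mmp15 groups were apart, and its 51.4 and 52.2 counts per kilobase in the mutants were within the receptor range. Mmp23, which is anchored by its amino end, was at 21.04 and 15.7 CPM against 15.4, 32.1 and 21.9 CPM. None of the 3 was called, with edgeR adjusted p between 0.18 and 0.56. Mmp19 was called higher, at 15.8 and 10.3 CPM against 1.95, 1.96 and 1.14 CPM (log2 fold change 2.95 ± 0.47, edgeR adjusted p = 0.0033). The subtracted value was 2.81 ± 0.52 (adjusted p = 0.014). Its mutant values of 62.6 and 52.4 counts per kilobase were within the receptor range, and its exons overlap Tmem198b on the other strand. Mmp21, an enzyme needed for left-right asymmetry, was at 7.89 and 2.66 CPM against 0.273, 0.132 and 0.270 CPM, also within that range at 58.1 and 25.3 counts per kilobase. Mmp28, epilysin, was at 4.60 and 1.25 CPM against 0.801, 1.28 and 1.25 CPM, and mutant 2 lay among the controls.

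Adamts7 was the 1 family member called lower with the deposited counts. Its product cuts cartilage oligomeric matrix protein, and the gene lies on chromosome 9, 90163069 to 90208071. It was at 70.1 and 78.2 CPM in the Bmp4 mutants and at 189.5, 141 and 101 CPM in the controls. Both mutants were below every control, and the controls were spread widely themselves (log2 fold change -0.95 ± 0.26 (SE), edgeR adjusted p = 0.019). Genes above the receptor background had a median of -0.43 in the same test. With scaling on those genes Adamts7 was at -0.52 (adjusted p = 0.11), and after background subtraction at -0.81 ± 0.27 (adjusted p = 0.060). It was at -0.89 without mutant 1 (adjusted p = 0.10) and at -1.04 without mutant 2 (adjusted p = 0.077), negative each time and past the threshold in neither. The chondrocyte markers summed to a lower level in the same libraries (395 and 1018 CPM against 1972 to 4178 CPM). Not every marker was lower, and their part in the Adamts7 difference was not tested. Adamts12, the other enzyme of this pair, went the opposite way, at 28.7 and 23.5 CPM against 11.4, 12.9 and 9.10 CPM. The groups did not overlap (1.23 ± 0.26, edgeR adjusted p = 0.0065). Its mutant values of 45.8 and 48.4 counts per kilobase were within the receptor range, and an even background would make up 29.8% and 30.0% of its mutant counts. The subtracted value was 0.97 ± 0.28 (adjusted p = 0.041), and the call was lost with the rate of genes silent in the controls (0.77, adjusted p = 0.11) and without any 1 of the 5 libraries except mutant 2 (adjusted p of 0.087 to 0.12).

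Adamts17 (chromosome 7, 66839735 to 67153171), which is linked to fibrillin microfibrils, was the member called higher whose counts exceeded the receptor range in both mutants, at 128 and 135 counts per kilobase. It was at 56.3 and 46.0 CPM in the Bmp4 mutants and at 18.8, 28.5 and 16.1 CPM in the controls. Both mutants were above every control (log2 fold change 1.28 ± 0.27 (SE), edgeR adjusted p = 0.0063). An even background would make up 10.7% and 10.8% of its mutant counts, and the subtracted value was 1.36 ± 0.27 (adjusted p = 0.015). Without mutant 1, the library with 12.3% hemoglobin counts, the value was 1.11 with deposited and 1.23 with subtracted counts, and the adjusted p rose to 0.064 and 0.081. Its mean over the 5 libraries did not reach 6.14 CPM per kilobase, so it is not among the 17 genes above that limit.

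Adamts16, an enzyme reported to cut fibronectin, was at 32.1 and 23.7 CPM in the Bmp4 mutants and at 1.52, 5.54 and 5.49 CPM in the controls. The groups were well apart (2.74 ± 0.54, edgeR adjusted p = 0.0050). It exceeded the receptor range in mutant 1 (88.1 counts per kilobase) and not in mutant 2 (84.1), and the subtracted value was 2.73 ± 0.57 (adjusted p = 0.017). Without mutant 1 the adjusted p was 0.059 with deposited and 0.080 with subtracted counts. Adamts18 was at 78.4 and 47.2 CPM against 40.4, 83.0 and 62.4 CPM, with both groups in the same range. Adamts19 was at 11.8 and 15.9 CPM against 5.86, 9.35 and 7.42 CPM, and it was not called (edgeR adjusted p = 0.068), with 31.5 and 54.4 counts per kilobase, within the receptor range. Adamts13, the protease of von Willebrand factor, was at 13.8 and 5.04 CPM, with 2 counts in control 2 and none in the other controls. It too passed the expression filter through the mutants alone. At 38.8 and 18.3 counts per kilobase it was within the receptor range.

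The proteoglycan-cutting Adamts genes include some of the highest family members in these cells. Adamts1 (chromosome 16, 85793827 to 85803113) was at 469 and 641 CPM in the Bmp4 mutants and at 568, 865 and 546 CPM in the controls. The values overlapped, and the fold change was within its error (log2 fold change -0.25 ± 0.26, edgeR adjusted p = 0.44). Adamts15 was at 269 and 324 CPM against 471, 352 and 260.4 CPM, and Adamts4 at 37.4 and 41.9 CPM against 23.9, 38.5 and 29.6 CPM. Both overlapped between the groups. Adamts9 was at 37.7 and 38.4 CPM against 33.2, 41.6 and 46.5 CPM, inside the range of the controls. Versican, the substrate these enzymes share, was itself lower in the mutants: Vcan was at 262 and 544 CPM against 1280, 898 and 881 CPM (-1.34 ± 0.35, edgeR adjusted p = 0.015, and 0.054 after subtraction).

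In the same class, 2 genes were called higher. Adamts20 was at 29.4 and 27.9 CPM in the Bmp4 mutants and at 9.10, 9.40 and 8.39 CPM in the controls, a narrow spread within each group (1.67 ± 0.23, edgeR adjusted p = 0.0033). Its 47.4 and 58.1 counts per kilobase were within the receptor range, and the subtracted value was 1.47 ± 0.25 (adjusted p = 0.013). Adamts5, a main aggrecanase of cartilage, was at 60.8 and 46.2 CPM against 14.8, 34.8 and 19.95 CPM. The groups did not overlap (1.21 ± 0.35, edgeR adjusted p = 0.023), but its mutant values of 77.1 and 75.6 counts per kilobase were in the receptor range. The subtracted value was 1.16 ± 0.36 (adjusted p = 0.051), and with deposited counts the call was lost without mutant 1 (adjusted p = 0.15), without mutant 2 (0.064) or without control 3 (0.056).

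Adamts2, Adamts3 and Adamts14 remove the amino-terminal propeptide of fibrillar procollagens. Adamts2 was at 51.9 and 30.8 CPM in the Bmp4 mutants and at 15.8, 18.7 and 10.2 CPM in the controls. Both mutants were above the controls (1.48 ± 0.33, edgeR adjusted p = 0.0079), and the subtracted value was nearly the same (1.47 ± 0.35, adjusted p = 0.022). Mutant 1 exceeded the receptor range at 97.9 counts per kilobase and mutant 2 did not at 74.9, and without mutant 1 the adjusted p was 0.081. Adamts3, which also processes the lymphatic growth factor Vegfc, was at 20.6 and 22.5 CPM against 10.3, 14.1 and 13.4 CPM. Its groups did not overlap (0.78 ± 0.26, edgeR adjusted p = 0.036). The subtracted value was 0.75 ± 0.28 (adjusted p = 0.079), and mutant 1 was within the receptor range at 70.2 counts per kilobase and mutant 2 above it at 99.1. With deposited counts, leaving out any 1 library took the adjusted p to between 0.066 and 0.11. The fibrillar collagen genes measured did not share a direction. Col3a1 was called higher (0.77 ± 0.27, edgeR adjusted p = 0.044). Col2a1 was called lower (-2.51 ± 0.53, edgeR adjusted p = 0.0068, and 0.024 after subtraction). Col1a1 was at 0.59 ± 0.27 (adjusted p = 0.10), Col1a2 at 0.33 ± 0.22 (adjusted p = 0.24) and Col5a1 at 0.15 ± 0.18 (adjusted p = 0.50), none of them called. The fibrillin-linked genes Adamts10 and Adamts6 were not called. Adamts10 was at 138 and 187 CPM against 214, 201 and 159 CPM, and Adamts6 at 14.5 and 18.4 CPM against 6.33, 6.62 and 19.4 CPM, where control 3 alone was high and the mutants were within the receptor range (25.5 and 41.6 counts per kilobase).

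Of the Adamts-like genes, Adamtsl3 was at 43.8 and 55.8 CPM in the Bmp4 mutants and at 62.2, 48.3 and 40.6 CPM in the controls. Adamtsl1 was at 62.6 and 54.5 CPM against 31.0, 52.6 and 67.0 CPM. In both genes the mutants lay within the range of the controls. The other 3, Adamtsl2, Adamtsl4 and Adamtsl5, were called higher from control means of 1.46 to 4.90 CPM, all within the receptor range. The subtracted values of the 5 genes were positive and none was called (1 at an unadjusted p under 0.05 by edgeR).

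The summed levels of the 4 inhibitors overlapped between the 2 groups of sorted cells, at 308 and 376 CPM in the Bmp4 mutants and 355, 392 and 360 CPM in the controls. Timp3, which binds to the matrix and also blocks Adamts enzymes, was at 219 and 274 CPM against 225, 277 and 243 CPM. The mean difference was close to 0 (log2 fold change -0.01 ± 0.18, edgeR adjusted p = 0.97). Timp2 was at 59.5 and 83.7 CPM against 113, 95.8 and 94.4 CPM. Both mutants were below every control without passing the threshold (-0.50 ± 0.19, edgeR adjusted p = 0.058); without mutant 2 the value was -0.76 (adjusted p = 0.032), the 1 family member then called lower. Timp1 was at 19.4 and 12.4 CPM against 17.4, 19.1 and 22.4 CPM, with overlap. Timp1 and Timp3 lie within the genes Syn1 and Syn3 without sharing exons with them. Timp4 shares exon sequence with Syn2 on the other strand, where reads cannot be assigned without strand. Timp4 was called higher from a control mean of 0.453 CPM, within the receptor range. Of the 16 genes outside the rule for a value by library, Timp4 and another 10 were called higher. The 16 had control means of at most 9.23 CPM and mutant values of 0.438 to 19.7 CPM.

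In the Wls mutant trachea, where the Wnt carrier gene Wls is deleted under ShhCre, 30 of the 39 family genes tested had a negative log2 fold change, and few differences were large. With 1 mutant library the edgeR test has 1 residual degree of freedom and assumes that the mutant varies like the controls. Of 39 genes tested, 5 were called lower and 0 higher, against 2.39% and 1.88% of all 15815 genes tested (4.27% in either direction). At an unadjusted p under 0.05, 13 were lower and 2 higher by edgeR, and DESeq2 called 1 lower and 0 higher. The median log2 fold change was -0.23 for the 39 genes and -0.01 for all genes. The mutant lay below both controls for 25 of the 39 and above both for 9, against 37.6% and 36.9% of all genes tested. None of the 28 genes with enough counts for a rule of size passed it, against 1.08% of 10897 genes. That rule asks for a log2 difference of at least 1, outside the controls by more than the controls differ.

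Adamts7 was again lower, at 60.1 CPM in the Wls mutant and at 94.2 and 97.1 CPM in the controls. The controls were close together and the mutant stood apart from them (log2 fold change -0.67 ± 0.18 (SE), edgeR adjusted p = 0.0090). DESeq2 gave it an adjusted p of 0.0498, the 1 family member it called. The chondrocyte markers summed to a lower level in this library too (484 CPM against 1268 and 1064 CPM). Not every marker was lower, and their part in the difference was not tested. Adamts12 was at 13.97 CPM against 19.2 and 35.8 CPM (-0.98 ± 0.21, edgeR adjusted p = 5.65e-04). Its controls differed by 0.90 on the log2 CPM scale, as much as the mutant differed from their mean (-0.90). In the Bmp4 mutants the same gene was called higher, within the receptor range. Comp, their substrate, was nearly absent, at 0.287 CPM against 0.373 and 0.155 CPM.

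Adamtsl3 was at 32.9 CPM in the Wls mutant and at 44.4 and 72.9 CPM in the controls. It was called lower (-0.84 ± 0.19, edgeR adjusted p = 0.0013), but here too the controls differed by 0.72 in log2 CPM. Adamts9, a versican-cutting enzyme, was at 58.2 CPM against 75.0 and 97.4 CPM (-0.57 ± 0.18, edgeR adjusted p = 0.044). Mmp28 was at 1.11 CPM against 2.69 and 3.51 CPM, which is 27 counts against 72 and 113 (-1.49 ± 0.47, edgeR adjusted p = 0.047). DESeq2 called none of these 3, with adjusted p between 0.15 and 0.52, and without the filter on low counts Adamts9 was at 0.058 by edgeR. Exons of Adamts9 overlap A730049H05Rik and Gm15737 on the other strand, and those of Mmp28 overlap 1700020L24Rik. Without control 2 the log2 fold changes were -0.36 for Adamts9, -0.43 for Adamtsl3 and -0.45 for Adamts12, while Adamts7 was at -0.65; these values have no test.

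**Figure D3:**
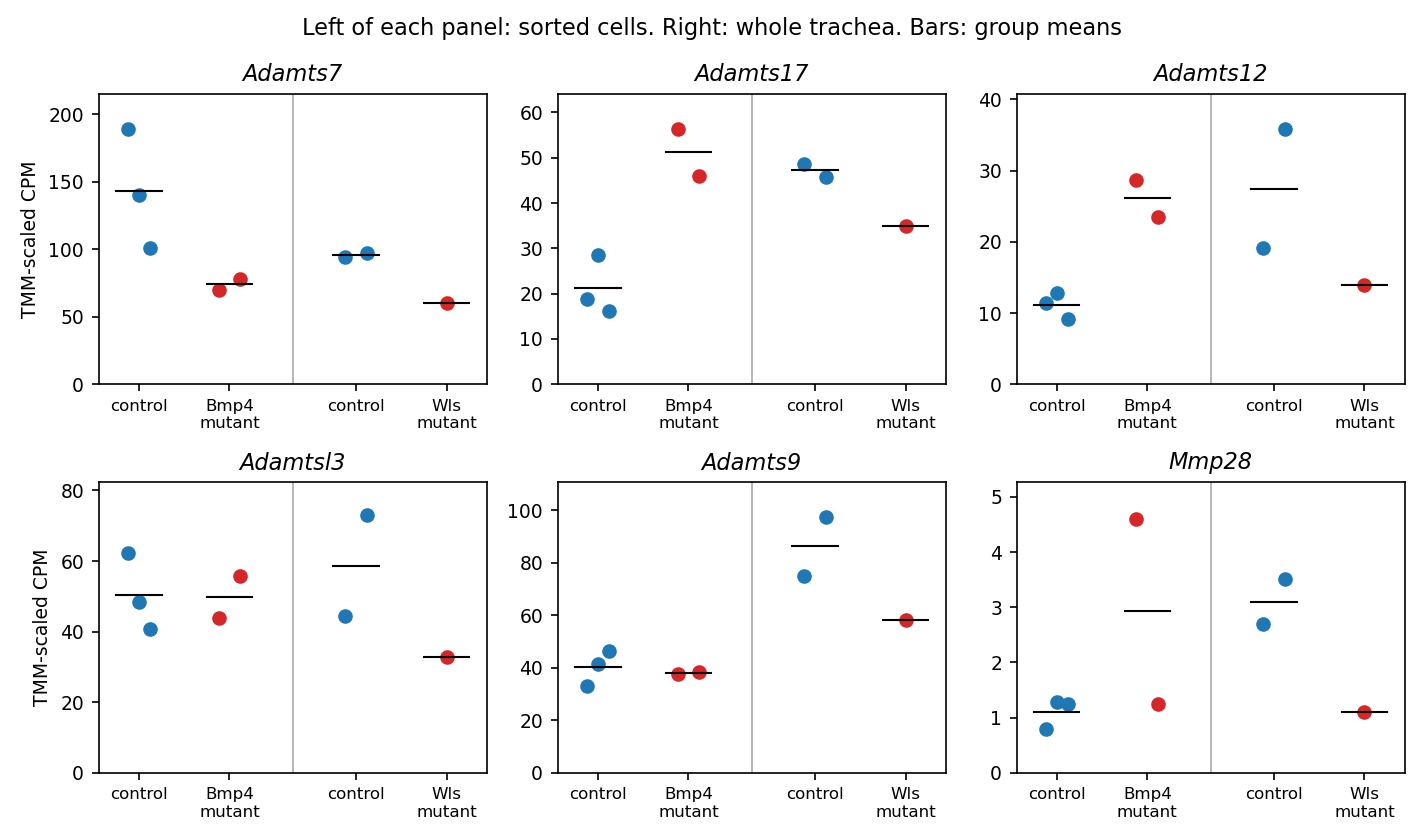
TMM-scaled CPM in each of the 8 libraries for Adamts17 and for the 5 genes called lower in the Wls mutant (Adamts7, Adamts12, Adamtsl3, Adamts9 and Mmp28); points are libraries and bars group means. Adamts7 is below all its controls in both experiments, at 70.1 and 78.2 CPM in the Bmp4 mutants and 60.1 CPM in the Wls mutant; the Bmp4 mutant values of Adamts12 and Mmp28 lie within the receptor range.

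Other proteoglycan-cutting genes were below both controls in the Wls mutant without passing the threshold. Adamts1 was at 135 CPM against 170 and 202 CPM (-0.47 ± 0.18, edgeR adjusted p = 0.15), and Adamts15 at 146 CPM against 210 and 214 CPM (-0.54 ± 0.18, adjusted p = 0.075). Adamts4 was at 7.70 CPM against 9.04 and 7.99 CPM. By contrast, Adamts5 was at 30.5 CPM against 27.0 and 26.6 CPM, and Adamts20 at 11.6 CPM against 8.03 and 8.33 CPM, both above their controls and neither called. Vcan was lower in this mutant as well, at 497 CPM against 722 and 910 CPM (log2 fold change -0.72, edgeR adjusted p = 0.046), and Acan, the aggrecan gene, at 2.21 CPM against 13.9 and 12.5 CPM (-2.57, adjusted p = 8.2e-12).

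The fibrillin-linked Adamts10 was at 86.1 CPM against 109 and 145 CPM, just short of the threshold (-0.56 ± 0.18, edgeR adjusted p = 0.0502, and 0.049 with DESeq2 size factors). Adamts6 was at 14.3 CPM against 14.9 and 26.9 CPM, where the controls were far apart. Adamts17 was at 35.0 CPM against 48.6 and 45.8 CPM, below both controls (-0.43 ± 0.18, edgeR adjusted p = 0.22), whereas it was above its controls in the Bmp4 mutants. Adamts18 was at 47.4 CPM against 43.3 and 75.6 CPM and Adamts19 at 10.9 CPM against 14.6 and 13.1 CPM. Adamts16 was at 3.36 CPM against 2.76 and 3.36 CPM, next to the higher control. Adamts13 had no count in the mutant and 7 and 5 counts in the controls. Of the procollagen N-propeptidases, Adamts2 was at 28.4 CPM against 34.2 and 25.8 CPM and Adamts3 at 9.51 CPM against 9.52 and 12.8 CPM. Adamts14 was at 2.99 CPM against 4.74 and 6.09 CPM, below both controls (-0.86 ± 0.36, edgeR adjusted p = 0.19). Adamtsl1 was at 43.1 CPM against 36.2 and 39.3 CPM, slightly above both.

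Besides Mmp28, no Mmp gene was called in the trachea. Mmp2 was at 367 CPM in the Wls mutant against 453 and 410.1 CPM (-0.23 ± 0.20, edgeR adjusted p = 0.68). Mmp14 was at 272 CPM against 342 and 289.7 CPM, Mmp11 at 107 CPM against 133 and 114 CPM, and Mmp15 at 69.0 CPM against 82.5 and 75.1 CPM. All 4 were below both controls, with log2 fold changes of -0.23 to -0.19. Mmp16 was at 22.3 CPM against 26.4 and 33.3 CPM (-0.43 ± 0.19, edgeR adjusted p = 0.26), also below both. Mmp23 was at 10.3 CPM against 10.2 and 9.79 CPM, and Mmp19 at 1.84 CPM against 1.76 and 1.40 CPM. Of the remaining named Mmp genes, Mmp3, Mmp12 and Mmp21 had 0 to 3 counts in each trachea and were not tested.

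Timp3 was the 1 inhibitor of the 4 with a positive difference, at 229.9 CPM in the Wls mutant against 157 and 172 CPM. The mutant was above both controls without passing the threshold (0.48 ± 0.18, edgeR adjusted p = 0.11). Timp2 was at 269 CPM against 297 and 276 CPM and Timp1 at 11.3 CPM against 12.8 and 11.1 CPM. Timp4, low in all 3 tracheas, had 11 counts in the mutant against 36 and 56 (-1.77 ± 0.64, edgeR adjusted p = 0.11). Summed, the 4 inhibitors were at 510.1 CPM against 469 and 460.5 CPM, while the 23 Mmp genes summed to 866 CPM against 1065 and 948 CPM and the 19 Adamts genes to 709 CPM against 905 and 1051 CPM.

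**Figure D4:**
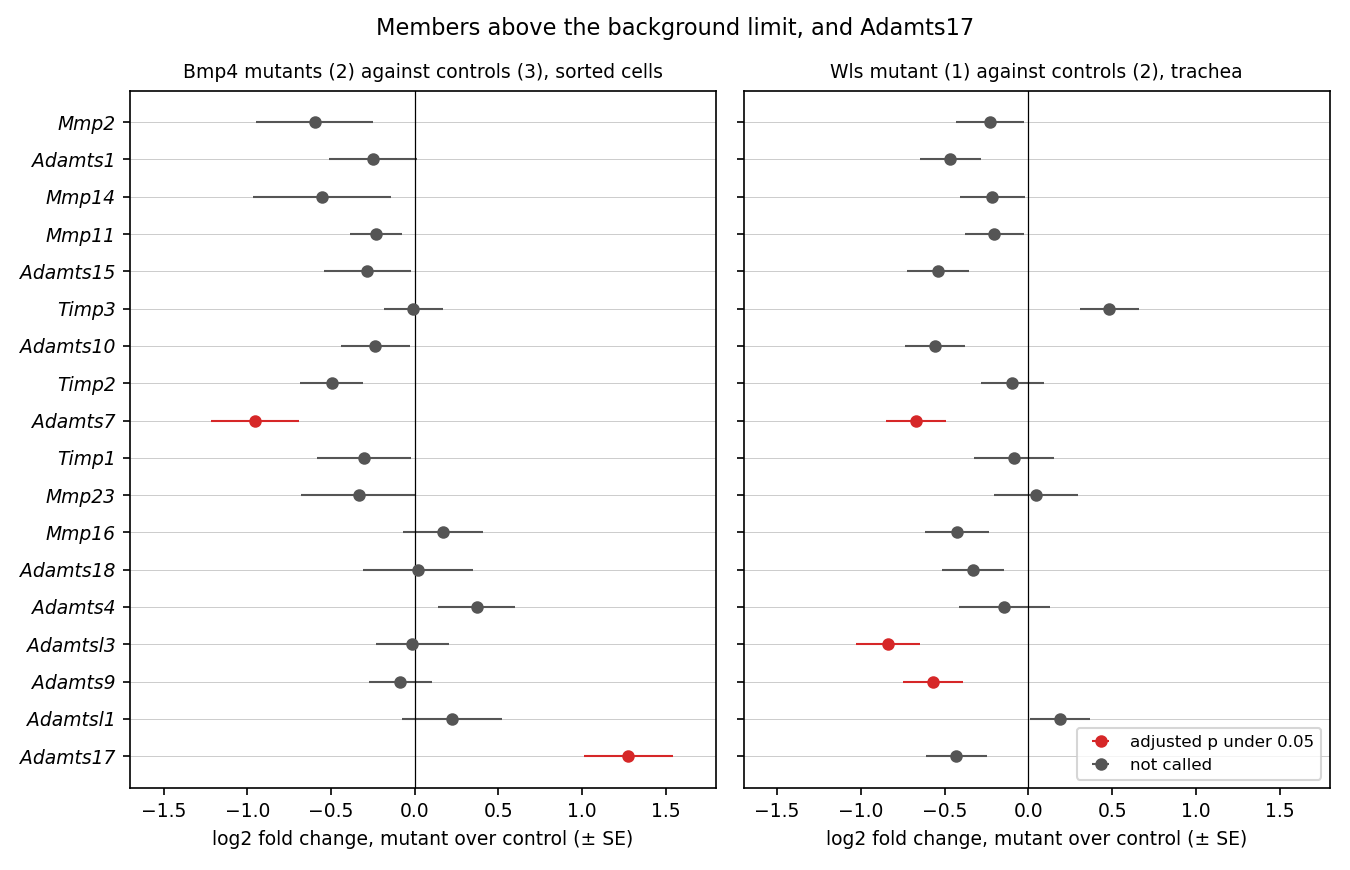
Log2 fold change of mutant over control with its standard error (edgeR), for the 17 genes above the receptor background limit, ordered by level, and Adamts17 at the bottom; left, Bmp4 mutants (2 against 3 sorted libraries), right, Wls mutant (1 against 2 tracheas). Red marks an adjusted p under 0.05: Adamts7 in both panels (-0.95 and -0.67), Adamts17 on the left, and Adamtsl3 and Adamts9 on the right.

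Of the 17 genes above the background limit, 13 had a negative log2 fold change in the Bmp4 mutants and 14 in the Wls mutant. Over all genes above the limit, 83% were negative in the Bmp4 mutants (6737 of 8114) and 49.7% in the Wls mutant (3991 of 8035). Adamts7 was the 1 gene of the 51 called lower both in the Bmp4 test with deposited counts and in the Wls test. Its Bmp4 call was lost after background subtraction (edgeR adjusted p = 0.060) and with scaling on genes above the background (0.11). It was also lost without mutant 1 (0.10) and without mutant 2 (0.077). How many of all genes were called lower in both experiments was not counted. The Bmp4 direction of 9 of the 13 depended on the scaling, as given in the closing part.

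Proteins that activate or restrain these enzymes were counted from a list of 21 regulators. In the Bmp4 mutants 10 were called higher and 2 lower with deposited counts, with a median log2 fold change of 0.77, against 39.3% and 15.6% of all genes and a median of 0.53. After subtraction 6 were called higher and 1 lower, against 22.3% and 8.98%. Of the 10, 6 were within the receptor range in both mutants, and A2m, Plaur, Pcsk5 and Thbs2 were not. Furin, the convertase that activates Mmp11, Mmp14 and several Adamts precursors, was at 17.2 and 13.1 CPM against 37.4, 31.9 and 27.9 CPM. Both mutants were well below the controls (-1.09 ± 0.24, edgeR adjusted p = 0.0071, and -1.29 ± 0.25 subtracted, adjusted p = 0.015). The mutant values of Furin, 53.65 and 52.74 counts per kilobase, were within the receptor range. Reck, a membrane-anchored inhibitor of Mmp enzymes, was at 82.1 and 128 CPM against 132, 136 and 84.0 CPM, and the groups overlapped. In the Wls mutant 1 of the 21 was called lower, against 2.39% of all genes. It was Spock2, a matrix proteoglycan, at 16.8 CPM against 33.2 and 35.0 CPM (-1.02, edgeR adjusted p = 6.4e-05). None was called higher, against 1.88% (1 at an unadjusted p under 0.05, edgeR).

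Of 18 other metalloproteinases, 10 were called higher and 1 lower in the Bmp4 mutants with deposited counts, against 39.3% and 15.6% of all genes. After subtraction 9 were called higher and 1 lower, against 22.3% and 8.98%. Of the 10 called higher with deposited counts, 6 were within the receptor range in both mutants. In the Wls mutant 0 were called higher and 2 lower of 16 tested, against 1.88% and 2.39% of all genes (1 higher at an unadjusted p under 0.05, edgeR). Bmp1, the procollagen C-proteinase that also cleaves the Bmp inhibitor chordin, was lower in both. It was at 77.3 and 76.0 CPM in the Bmp4 mutants against 171, 155 and 147 CPM (-1.04 ± 0.15, edgeR adjusted p = 0.0033), and at 211 CPM in the Wls mutant against 347 and 424 CPM (-0.87, adjusted p = 0.0015). Phex, a peptidase of mineralizing tissue, was higher in the Bmp4 mutants (1.40 ± 0.33, edgeR adjusted p = 0.010, within the receptor range at 63.5 and 86.5 counts per kilobase) and lower in the Wls mutant (-0.92, adjusted p = 0.0010). Of 19 matrix substrates, 6 were called higher and 4 lower in the Bmp4 mutants with deposited counts, against 39.3% and 15.6% of all genes. The lower ones were Vcan, Bcan, Col2a1 and Fbn2, and 3 of the 6 higher ones were within the receptor range. After subtraction 4 were called higher and 2 lower, against 22.3% and 8.98%, and Vcan (edgeR adjusted p = 0.054) and Fbn2 (0.11) lost the call. In the Wls mutant 0 of 18 tested were called higher (0 also at an unadjusted p under 0.05, edgeR), against 1.88% of all genes. Called lower were 6 (Acan, Vcan, Bcan, Col2a1, Eln and Vwf), against 2.39%. Bcan and Col2a1 were lower in both experiments, in the Bmp4 mutants with deposited and with subtracted counts. Bcan was within the receptor range in the Bmp4 mutants, at 29.6 and 42.3 counts per kilobase. In the Wls mutant it was low, at 0.942 CPM against 4.41 and 4.51 CPM.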

How the data were processed

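The authors deposited 2 tables of whole-number counts per gene, from Trizol RNA, for sorted cells (SMART-Seq v4) and tracheas (Ovation v2), per the labels' protocols. Per the submitters' processing notes, build mm10 and the tools Bowtie2, Cufflinks and DESeq were used, and Trim Galore for the sorted cells; which program counted reads, and with what strand setting, is not given in the sources used here. Counts were tested as deposited, within each table, in R 4.3.3 with edgeR 4.0.16 (quasi-likelihood F test, TMM, default expression filter, Benjamini-Hochberg adjustment over all genes tested); DESeq2 1.42.0 was an alternative. Exon lengths came from GENCODE M21 (mm10) for 22114 of 23478 symbols. A second Bmp4 test used counts minus the receptor rate times exon length, floored at 0 and rounded. Promoters came from RefSeq (GRCm38.p6), for 36 of the 51 genes. Genes given by library were those with a mean of at least 10 CPM in the controls of either table, those called after subtraction or in the Wls test, and those called while above the receptor 99th percentile in both mutants; others named were chosen after their values were seen. The genes and lists were chosen with earlier results of these data known. The methods were tested on simulated data. Reads carry no molecular identifiers, so counts and zero limits cover counting error only.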

Additional observations from a re-analysis of the deposited data

How the results depend on the processing

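With deposited counts of the Bmp4 experiment, leaving out 1 library in turn gave 3595 to 10478 genes called, 7 to 23 of the 51 higher and 0 to 1 lower; without mutant 1 the numbers were 3595, 7 and 0, and without mutant 2 they were 7829 and 16 higher. After subtraction these ranges were 4 to 4807, 0 to 13 and 0 to 1, with 4 genes and 0 of the 51 without mutant 1. Mutants and controls share replicate numbers 1 and 2, and the labels do not say that a number pairs libraries; deviations from the group means correlated at -0.22 and -0.15 across genes between same-numbered libraries. With the number as a replicate block, 4 genes and 0 of the 51 were called higher or lower with deposited counts, and 0 genes after subtraction (22 higher and 1 lower, and 12 higher and 1 lower, at an unadjusted p under 0.05). Scaling on genes above the receptor background left 0 of the 51 lower. The rate from genes silent in controls left 9 higher in place of 12 after subtraction and 2 lower (Mmp25 and Mmp28), and DESeq2, chosen after seeing the data, 1. Restricting the subtracted test to genes above the background, also chosen then, left 76 genes and 0 of the 51 (3 higher at an unadjusted p under 0.05). In the Wls test DESeq2 called 256 genes and 1 of the 51 lower. Of 350 alternative values of named genes with deposited Bmp4 counts, 31 lost and 6 gained the threshold; of 120 after subtraction, 33 lost and 5 gained it; of 145 in the Wls test, 5 lost and 1 gained it. Leaving out a Wls control leaves 1 library a group, so those values have no test.

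Directions near 0 in the Bmp4 mutants turned, and the cause was not tested beyond the alternatives named. Scaling on genes above the background gave log2 fold changes of 0.17 for Adamts1, 0.18 for Adamts10, 0.14 for Adamts15, 0.34 for Adamts9, 0.41 for Adamtsl3, 0.20 for Mmp11, 0.10 for Mmp23, 0.13 for Timp1 and 0.41 for Timp3. DESeq2 size factors gave 0.0201 for Adamtsl3 and 0.0278 for Timp3, and DESeq2 gave 0.0193 and 0.0272. The replicate block gave 0.0341 for Adamts9 and -0.0015 for Mmp16. Leaving out 1 library gave ranges of -0.41 to 0.34 for Adamts18, -0.21 to 0.0286 for Adamts9, -0.0272 to 0.49 for Adamtsl1, -0.20 to 0.17 for Adamtsl3, -0.0712 to 0.37 for Mmp16 and -0.18 to 0.13 for Timp3. In the Wls mutant, Adamts2 (0.15) and Timp1 (0.0349) turned positive without control 1 and Adamts18 (0.13) without control 2.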
